A study of Mus musculus with 6 samples.

Results

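The natriuretic peptide system was followed through 7 genes, taken by name from the deposited gene table, which lists 54532 genes. They were the 3 peptide genes Nppa, Nppb and Nppc, the protease gene Corin, and the receptor genes Npr1, Npr2 and Npr3, and each name matched 1 row. All 7 were among the 15520 genes abundant enough to be tested. Peri-infarcted and infarcted heart tissue was sequenced from 3 WT and 3 Crlf2-/- mice on day 7 after myocardial infarction (MI). The mice were labelled C57BL/6, and both groups had undergone permanent ligation of the left anterior descending coronary artery (LAD). Crlf2-/- mice carry a targeted knockout of Crlf2, the gene for TSLPR, the receptor of the cytokine thymic stromal lymphopoietin, which acts on immune cells. By the paper, C57BL/6J mice, young adult males, were bought from 1 company, and another made the knockout line. Whether the sequenced WT mice were bought or bred beside the knockout line was not given. Genotype and source thus cannot be told apart from what is stated. Each library came from 1 mouse heart by the account in the paper. No heart without infarction was analysed here, so the comparison is of genotype after MI alone.

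Natriuretic peptides are hormones of the heart muscle cell that lower blood pressure and blood volume. Atrial natriuretic peptide (ANP, from Nppa) and B-type natriuretic peptide (BNP, from Nppb) are fetal genes of the ventricle that are switched on again when the ventricular wall is stretched or injured, while C-type natriuretic peptide (CNP, from Nppc) is made mainly by endothelium and acts locally. Corin is a protease on the cardiomyocyte surface that cuts pro-ANP into the active hormone. Npr1 and Npr2 encode receptors that make cyclic GMP (cGMP) when bound, Npr1 for ANP and BNP and Npr2 for CNP, and Npr3 encodes a clearance receptor that removes all 3 peptides from the circulation.

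The hormones share a ring closed by a disulfide bond between 2 cysteines, which the receptors recognise. The coding stretch from the first to the last codon of that ring is shown for Nppb and Nppc because it is the part these peptide genes have in common. It lies in exon 2 of 3 in each gene. It was read from GENCODE M21 transcripts (GRCm38), at chr4:147986464-147986514 on the plus strand for Nppb and chr1:86669667-86669717 on the minus strand for Nppc. Capitals mark the bases that are identical in both genes.
Nppb: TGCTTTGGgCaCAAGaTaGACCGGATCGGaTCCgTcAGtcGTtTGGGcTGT
Nppc: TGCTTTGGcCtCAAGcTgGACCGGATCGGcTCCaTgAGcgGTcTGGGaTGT
Of the 51 bases, 40 were identical (78.4%), although Nppb was among the most abundant transcripts of these hearts and Nppc was near the limit of detection.

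Depth lay between 18508646 and 19682428 fragments per library (WT median 18582799, Crlf2-/- median 18867588). Values are fragments scaled to gene length and library depth (FPKM), which allow levels of different genes to be set side by side. Fold changes are of Crlf2-/- against WT on the scale log2(scaled FPKM + 0.1), tested with limma, and a call needed both an adjusted p no higher than 0.05 and a log2 change of 0.5 or more in size. By that rule 2 of 15520 genes were called (0.0129%). The paper used the same thresholds with another test, DESeq2, and reports many more genes as different. The count here is thus that of limma on FPKM, and DESeq2 was not run. Fragments of Crlf2 itself numbered 917, 813 and 707 in the WT hearts and 437, 651 and 667 in the knockout hearts, so its transcript was lower in all 3 Crlf2-/- libraries but still present. Its log2 fold change was -0.52 (limma adjusted p = 0.521), so Crlf2 was not called. Which exons the knockout removes was not given in the sources used here, and a value over the whole gene does not test the deletion. Some libraries stood apart. Crlf2-/- replicate 2 held skeletal muscle transcripts, with a summed FPKM of 360.5 over 8 markers against 4.88 to 14.9 in the other 5 libraries, and WT replicate 3 held lung transcripts, with a summed FPKM of 10.3 over 5 markers against 0.106 to 1.65. The extraction text in the labels names another tissue. Cardiac markers such as Actc1 (479 to 1399 FPKM) and Tnni3 (12.03 to 64.5 FPKM) were present in every library, and the tissue label, heart, was followed.

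None of the 7 genes was called. None had an unadjusted p under 0.05, a threshold that 1021 genes (6.58%) passed. In none did the values of the 2 genotypes lie apart, as they did for 1823 genes (11.7%). The fold change was below 0 for 6 of the 7 genes and above 0 for Npr3, with a median log2 fold change of -0.07, beside -0.0042 over all genes tested.

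**Figure D1:**
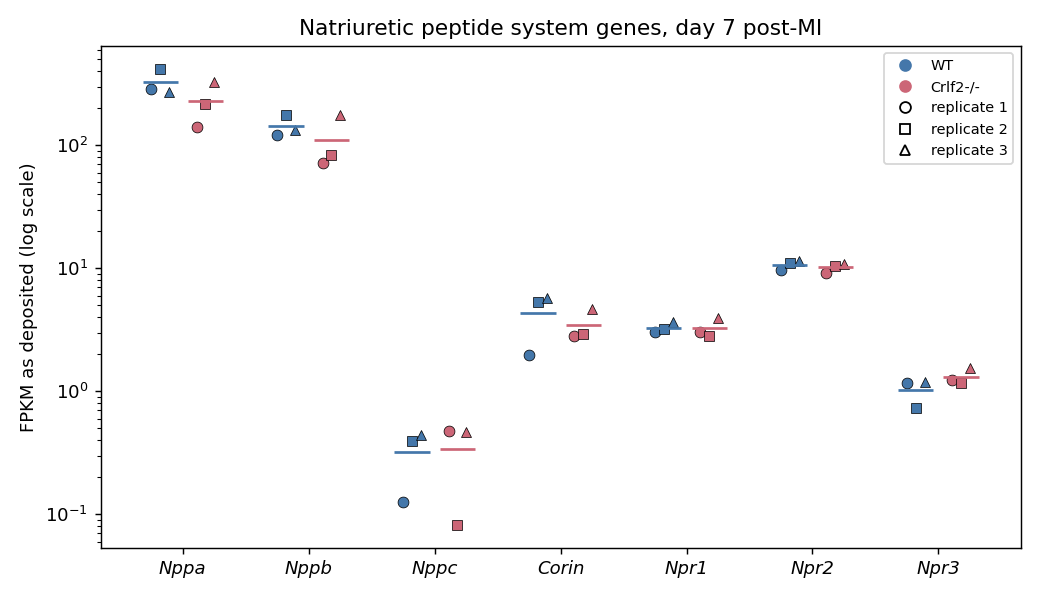
Deposited FPKM (vertical axis, log scale) of the 7 genes in each library, WT in blue and Crlf2-/- in red, with the replicate number as the symbol and the group mean as a line. Nppa and Nppb sat above the other genes in every library, and WT and Crlf2-/- points overlapped for each gene.

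Levels spanned a wide range. Nppa was at the 99.4th percentile of mean FPKM among the genes tested and Nppb at the 98.5th, followed by Npr2 (75.8th), Corin (49.9th), Npr1 (45.4th), Npr3 (24.4th) and Nppc (9.0th). Nppa exceeded Nppb within each of the 6 libraries, although their ranges over libraries (140.0 to 419.8 and 71.9 to 177.5 FPKM) overlapped. Corin exceeded Npr1 in 4 of 6 libraries, and the order of these 2 genes did not hold beyond their spread. The other neighbours in this order had ranges that did not overlap.

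Nppa (ENSMUSG00000041616, chr4:148000722-148002079, plus strand) encodes ANP. Its level was 289, 419.8 and 272 FPKM in WT replicates 1 to 3 and 140.0, 219 and 327 FPKM in Crlf2-/- replicates 1 to 3. Crlf2-/- replicates 1 and 2 were below all WT libraries, and Crlf2-/- replicate 3 was above 2 of the 3. The mean was 327 ± 80.8 FPKM in WT and 229 ± 94.1 FPKM in Crlf2-/- (SD, n = 3 each). The log2 fold change was -0.57 with a standard error of 0.303 (limma adjusted p = 0.846), and its 95% interval ran from -1.27 to 0.13, a fold of 0.415 to 1.10. Within a genotype, Nppa varied more than 91.7% of the genes tested, with a pooled SD of 0.491 on the log2 scale against a median of 0.197. Without Crlf2-/- replicate 3 the log2 fold change was -0.87, and without Crlf2-/- replicate 1 it was -0.26, so single libraries moved it by more than 1.5 times. Leaving out the library with skeletal muscle transcripts gave -0.57 and the library with lung transcripts -0.69.

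Nppb (ENSMUSG00000029019, chr4:147985788-147987205, plus strand) encodes BNP, the peptide used clinically as a marker of heart failure. It lies 13.5 kb upstream of Nppa in the same direction. WT libraries had 121, 177 and 132 FPKM, and Crlf2-/- libraries 71.9, 83.7 and 176 FPKM. As for Nppa, Crlf2-/- replicates 1 and 2 lay below every WT library and Crlf2-/- replicate 3 did not. The group means were 144 ± 29.8 FPKM in WT and 111 ± 57.2 FPKM in Crlf2-/- (SD, n = 3 each). The log2 fold change of -0.47 had a standard error of 0.321 and a 95% interval of -1.21 to 0.27 (limma adjusted p = 0.924). It was -0.86 without Crlf2-/- replicate 3 and -0.22 without Crlf2-/- replicate 1. Leaving out Crlf2-/- replicate 2 gave -0.32, and leaving out WT replicate 3 gave -0.52.

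The Nppb to Nppa ratio within a library was 0.420, 0.423 and 0.486 in WT and 0.514, 0.383 and 0.539 in Crlf2-/-. The groups overlapped, and the mean log2 ratio was higher by 0.099 in Crlf2-/- (two-sided exact permutation test, p = 0.6, adjusted p = 0.6 over 5 ratios). Over the 6 libraries, the profile of Nppb was the 11th most like that of Nppa among the genes tested, with a root mean square difference of 0.176 on the log2 scale after centring. The 3 closest to Nppa were D330025C20Rik (0.116), Cdo1, an enzyme of cysteine breakdown (0.121), and Proca1 (0.126). Closest to Nppb were Gm9899 (0.116), Syt7, a calcium sensor of vesicle fusion (0.121), and Sez6l2 (0.123), with Nppa 8th. The 2 neighbouring peptide genes thus went up and down largely together from heart to heart, in both genotypes.

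The promoters of these neighbours are shown because their levels moved together. The sequence is from RefSeq (GRCm38.p6). In Nppa it is the 250 bases before the start of transcription, chr4:148000472-148000721 on the plus strand, with capitals for GATA factor motifs and NKX2-5 motifs, the binding letters of 2 groups of cardiac transcription factors. In Nppb it is the 27-base stretch chr4:147985795-147985821 on the plus strand, with capitals for a motif of the TEAD factors (M-CAT, here on the opposite strand) and GATA motifs. That stretch is before the RefSeq start and inside the first exon of a longer GENCODE model.
Nppa: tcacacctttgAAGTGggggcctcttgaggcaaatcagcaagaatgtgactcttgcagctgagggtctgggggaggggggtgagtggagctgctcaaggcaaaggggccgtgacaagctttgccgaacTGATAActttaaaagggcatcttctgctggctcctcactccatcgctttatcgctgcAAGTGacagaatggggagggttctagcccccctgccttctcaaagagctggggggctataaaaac
Nppb: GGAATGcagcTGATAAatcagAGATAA
The windows of 250 bases before the RefSeq start were searched on both strands for the GATA motif (AGATAA or TGATAA, each also with a final G), for M-CAT (CATTCC), for the NKX2-5 motif (AAGTG), for the E-box (CANNTG) and for the serum response element by its usual letters. All 7 genes had such a window. Nppa held 1 GATA match at positions -122 to -117 and 2 NKX2-5 matches, and Nppb held 2 GATA matches at -95 to -90 and -84 to -79 and 1 M-CAT match at -105 to -100. These 2 genes were the ones of the 7 with a GATA match, which 26.6% of 32817 RefSeq promoters had. M-CAT was present in 12.6% of promoters, NKX2-5 in 40.7%, the E-box in 66.2% and the serum response element in 1.47%, with no match to the last in any of the 7. The E-box had 2 matches in Nppa and 1 in Nppb. These were not marked as such, and some of their bases fall in the capitals of other motifs. A match is a run of letters and was not tested for binding.

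The genes around the pair gave a comparison of position. Of 9 chromosome 4 neighbours tested, none was called, 2 were lower and 7 higher, with a median log2 fold change of 0.07. Plod1, a collagen lysyl hydroxylase, had 28.3 ± 1.42 FPKM in WT and 28.4 ± 1.94 FPKM in Crlf2-/- (SD, n = 3 each). Mfn2, a mitochondrial fusion protein, had 19.6 ± 4.56 and 16.7 ± 3.94 FPKM, 2510039O18Rik 27.4 ± 1.97 and 27.9 ± 2.12 FPKM, and Agtrap, a protein that binds the angiotensin receptor, 8.57 ± 0.58 and 8.98 ± 0.0835 FPKM. Miip was the neighbour whose groups did not overlap, with a log2 fold change of 0.19 (limma adjusted p = 0.876).

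Cardiomyocyte markers lay lower in the same Crlf2-/- hearts in which Nppa and Nppb lay lower. All 18 markers of the list had a log2 fold change below 0, with a median of -0.66. None was called, and 7 of the 18 had an unadjusted p under 0.05, beside 6.58% of all genes tested. For 1, Myl2, the Crlf2-/- values all lay under the WT values, as did 989 genes (6.37%) over all genes tested. Their summed level was 1588 to 2893 FPKM in WT and 1121 to 2092 FPKM in Crlf2-/-. Per library, the median marker deviated from its WT mean by -0.504, 0.218 and 0.205 in WT and by -1.17, -0.893 and -0.08 in Crlf2-/-, on the log2 scale. The low libraries, Crlf2-/- replicates 1 and 2, were those in which Nppa (-1.19 and -0.557) and Nppb (-0.969 and -0.763) were low. In bulk tissue, fewer cardiomyocytes and less RNA per cardiomyocyte cannot be told apart.

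**Figure D2:**
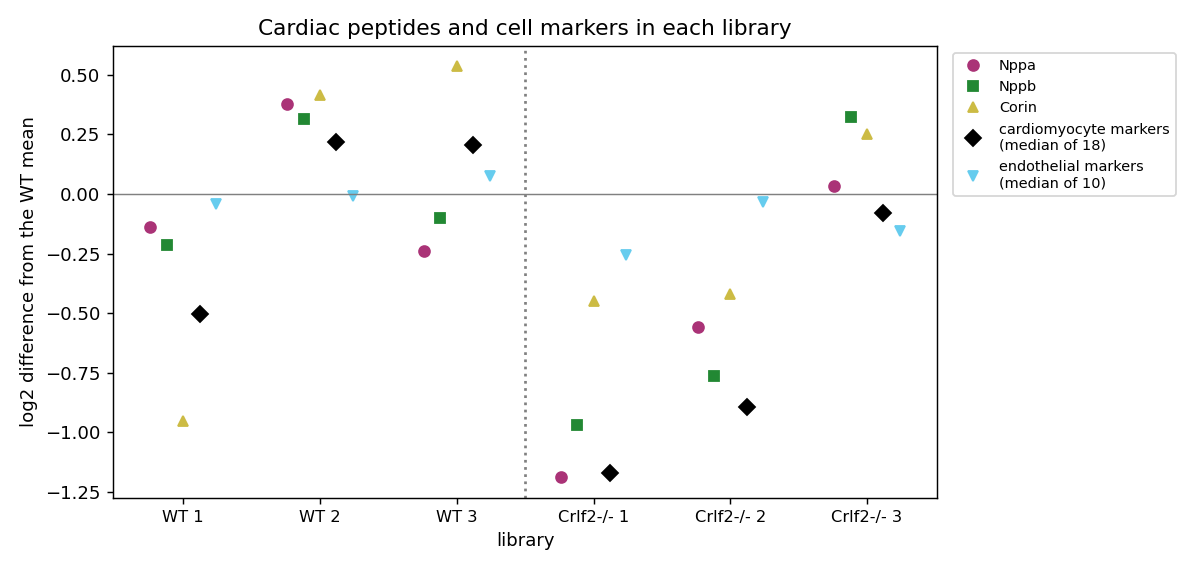
Log2 difference from the WT mean (vertical axis) of Nppa, Nppb and Corin and of the median cardiomyocyte and endothelial marker, for each of the 6 libraries (horizontal axis). In Crlf2-/- replicates 1 and 2 Nppa, Nppb, Corin and the cardiomyocyte markers all lay below 0, and in Crlf2-/- replicate 3 Nppa, Nppb and Corin lay above 0 while the cardiomyocyte markers were at -0.08.

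Set against the cardiomyocyte markers of the same library, the means of the peptides were higher, not lower, in Crlf2-/-. The log2 ratio of Nppa to the median marker was 2.49, 2.47 and 1.68 in WT and 2.61, 2.65 and 2.38 in Crlf2-/-. Its groups overlapped, with a mean higher by 0.332 in Crlf2-/- (two-sided exact permutation test, p = 0.3, adjusted p = 0.375 over 5 ratios). For Nppb the log2 ratio was 1.24, 1.23 and 0.635 in WT and 1.65, 1.27 and 1.48 in Crlf2-/-. Here every Crlf2-/- library was above every WT library, by a mean of 0.431, with the smallest p that 3 against 3 libraries allow (exact permutation test, p = 0.1, adjusted p = 0.167). The gap was narrow, with the lowest Crlf2-/- library at 1.27 and the highest WT library at 1.24. Without WT replicate 3, the library with lung transcripts, the mean difference fell to 0.063 for Nppa and 0.231 for Nppb. With 5 cardiac-restricted markers (Myh6, Tnnt2, Tnni3, Mybpc3 and Ryr2), which were chosen after seeing the data because skeletal muscle shares several of the 18, the differences were 0.601 for Nppa (exact permutation p = 0.5) and 0.701 for Nppb (exact permutation p = 0.2). With the mean of the 18 markers in place of their median they were 0.178 (exact permutation p = 0.9) and 0.277 (exact permutation p = 0.2), so under both of these alternatives the Nppb groups overlapped.

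Atrial tissue, where Nppa is high in the healthy heart, left little trace. Bmp10 was at most 0.0204 FPKM and Myl7, the atrial light chain, at most 0.535 FPKM in any library. Sln was listed at 0 in all 3 WT libraries and in Crlf2-/- replicate 1, and at 4.98 FPKM in Crlf2-/- replicate 2. That replicate also had 6.97 FPKM of Myl4 against 0.447 to 0.679 FPKM elsewhere. It is the library with skeletal muscle transcripts, and its Myl7 (0.0727 FPKM) and Bmp10 (0 FPKM) were not raised. The source of its Sln and Myl4 was not tested. Over the 9 atrial markers, 6 were tested, with 3 higher and 3 lower. The summed level was 52.5 to 78.8 FPKM in WT and 71.9 to 75.6 FPKM in Crlf2-/-, most of it Dkk3, which fibroblasts also express. The sum of Crlf2-/- replicate 2 includes its Sln and Myl4. Ventricular markers were lower in 4 of 4 cases, with a median log2 fold change of -0.94. Their summed level was 134 to 200.8 FPKM in WT and 43.5 to 137 FPKM in Crlf2-/-. For Myl2 and Hey2 the Crlf2-/- values all lay under the WT values, beside 6.37% of all genes. Myl2 and Myl3 are also among the cardiomyocyte markers above.

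Other stress and fetal genes of the cardiomyocyte did not share 1 direction. Of 15 listed, 14 were tested and none called, 7 higher and 7 lower, with a median log2 fold change of 0.03. Ankrd1, a stretch-responsive nuclear and sarcomere protein, had 509 ± 124 FPKM in WT and 378 ± 111 FPKM in Crlf2-/- (SD, n = 3 each). Nmrk2, a kinase of NAD synthesis, had 4.71, 7.02 and 5.80 FPKM in WT and 2.70, 2.73 and 4.79 FPKM in Crlf2-/-, the lowest unadjusted p of the list (log2 fold change -0.79, limma adjusted p = 0.469). Hspb7, a small heat shock protein of heart muscle, had 111 ± 35.3 and 94.2 ± 40.9 FPKM, and Fhl1, a LIM protein of muscle, 54.0 ± 9.45 and 61.5 ± 16.1 FPKM. Acta1, the skeletal actin that stressed ventricles express, stood at 414 FPKM in Crlf2-/- replicate 2 and at 15.6 to 87.9 FPKM elsewhere. That replicate is the one with skeletal muscle transcripts. It was also the highest library for Tnni1 (6.50 FPKM, at most 0.381 FPKM elsewhere) and Fhl1 (79.8 FPKM, at most 62.5 FPKM elsewhere). In Crlf2-/- replicates 1 and 3, none of these genes exceeded its highest WT value. All were counted among the 7 higher genes, with log2 fold changes of 0.33 (Acta1), 1.06 (Tnni1) and 0.18 (Fhl1). The split of directions without Crlf2-/- replicate 2 was not tested.

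Nppc (ENSMUSG00000026241, chr1:86666291-86670571, minus strand), the CNP gene, was near the limit of detection. Its fragments numbered 3, 9 and 10 in the WT libraries and 11, 2 and 11 in the Crlf2-/- libraries, or 0.125, 0.399 and 0.439 FPKM and 0.476, 0.0823 and 0.468 FPKM. The exact Poisson interval of the lowest library, 0.242 to 7.23 fragments, overlapped that of the highest, 5.49 to 19.7 fragments, and covers counting error only. The log2 fold change was -0.002 with a standard error of 0.519 and a 95% interval of -1.20 to 1.20 (limma adjusted p = 0.999), so the data leave a change of that size possible in either direction. Closest in profile were Gm37755 (0.201), 4931422A03Rik (0.209) and Vtcn1 (0.238), all of low level.

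Corin (ENSMUSG00000005220, chr5:72300025-72504473, minus strand) was the most variable member beside Nppc. Its level was 1.96, 5.31 and 5.73 FPKM in WT and 2.83, 2.91 and 4.67 FPKM in Crlf2-/-. All Crlf2-/- libraries lay inside the WT range, whose lowest value, WT replicate 1, was also the WT library with the lowest cardiomyocyte markers. The means were 4.33 ± 2.06 FPKM and 3.47 ± 1.04 FPKM (SD, n = 3 each), with a log2 fold change of -0.21, a standard error of 0.389 and a 95% interval of -1.10 to 0.69 (limma adjusted p = 0.996). The value was -0.68 without WT replicate 1, 0.0033 without WT replicate 2 and 0.06 without WT replicate 3, so it had no stable direction. Its pooled SD within genotypes, 0.648 on the log2 scale, exceeded that of 96.4% of genes tested. Nearest in profile were Nlrp10 (0.0928), Gnat2 (0.116) and Dsp, a desmosome protein of the cardiomyocyte junction (0.117).

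Relative to the cardiomyocyte markers, the log2 ratio of Corin was -4.64, -3.81 and -3.87 in WT and -2.97, -3.53 and -3.73 in Crlf2-/-. Every Crlf2-/- library was above every WT library, by a mean of 0.696, again at the smallest p possible (exact permutation test, p = 0.1, adjusted p = 0.167). The mean difference was 0.428 without WT replicate 1. With the 5 cardiac-restricted markers it was 0.966 and the groups overlapped (exact permutation p = 0.2). Corin lies on the same chromosome as Crlf2, 37.1 Mb away.

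**Figure D3:**
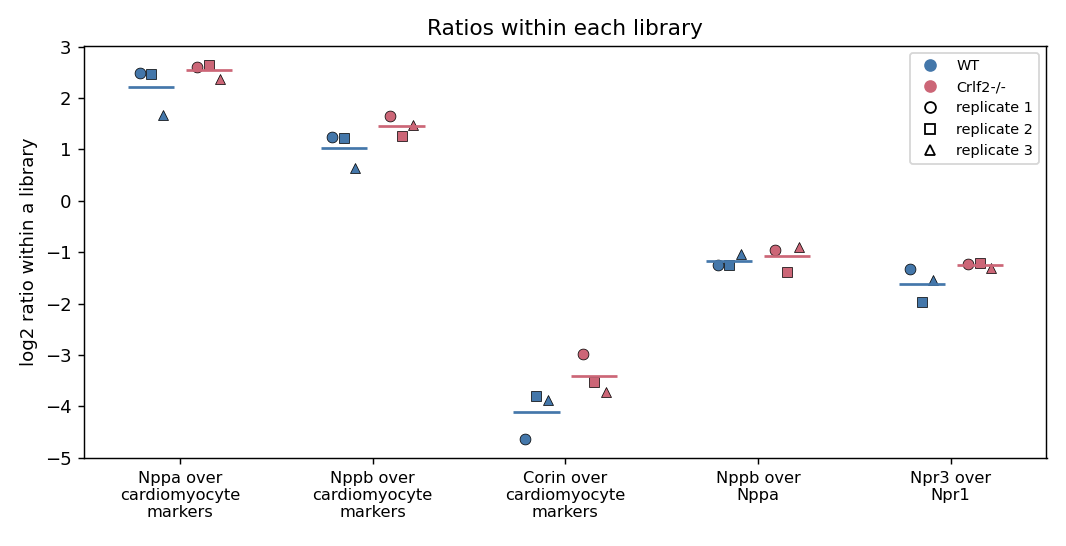
Log2 ratios within each library (vertical axis) of Nppa, Nppb and Corin to the median of 18 cardiomyocyte markers, of Nppb to Nppa and of Npr3 to Npr1, with WT in blue, Crlf2-/- in red, the replicate as the symbol and the group mean as a line. The groups did not overlap for Nppb and Corin over cardiomyocyte markers and for Npr3 over Npr1.

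The other enzymes that make or remove the peptides showed no call. Of the 8 genes in the processing and degradation list, Corin included, 6 were lower and 2 higher, with a median log2 fold change of -0.09. Furin, which cuts pro-BNP, had 16.7, 16.4 and 16.8 FPKM in WT and 18.3, 17.4 and 20.8 FPKM in Crlf2-/-. Its groups did not overlap, and the log2 fold change was 0.18 (limma adjusted p = 0.867). Pam, which amidates many peptides, was the most abundant of the list, at 68.7 ± 12.2 FPKM in WT and 61.9 ± 9.58 FPKM in Crlf2-/- (SD, n = 3 each). Pcsk6, the convertase that activates corin, had 14.1 ± 3.81 and 12.8 ± 2.95 FPKM, and Ide, insulin-degrading enzyme, 12.9 ± 1.54 and 12.8 ± 1.61 FPKM.

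Pooled over genotypes, the 3 receptors varied less between libraries of a group (SD 0.125 to 0.292 on the log2 scale) than Nppa, Nppb and Corin (0.491 to 0.648), although in WT alone Npr3 and Nppa had the same coefficient of variation, 24.7%. Npr1 (ENSMUSG00000027931, chr3:90450591-90465866, minus strand), the receptor of ANP and BNP, had 3.07, 3.19 and 3.64 FPKM in WT and 3.04, 2.82 and 3.95 FPKM in Crlf2-/-. The highest and the 2 lowest libraries were Crlf2-/-, so the WT range lay within the Crlf2-/- range. With means of 3.30 ± 0.302 and 3.27 ± 0.598 FPKM (SD, n = 3 each), the log2 fold change was -0.02, with a standard error of 0.155 and a 95% interval of -0.38 to 0.34 (limma adjusted p = 0.996). Closest in profile were Sobp (0.0359), Rpap1, a factor of RNA polymerase II assembly (0.0392), and Sbf1 (0.0393).

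Npr2 (ENSMUSG00000028469, chr4:43631935-43651244, plus strand), the receptor of CNP, was the most abundant of the 3 receptors. Its values were 9.62, 10.98 and 11.6 FPKM in WT and 9.23, 10.4 and 10.9 FPKM in Crlf2-/-, with means of 10.7 ± 0.996 and 10.2 ± 0.875 FPKM (SD, n = 3 each). The groups overlapped almost fully. The log2 fold change was -0.07, with a standard error of 0.113 and the narrowest 95% interval of the 7 genes, -0.33 to 0.19 (limma adjusted p = 0.995). Its pooled SD, 0.125 on the log2 scale, was larger than that of 22.5% of genes tested. Most alike in profile were Paqr8 (0.0299), BC034090 (0.0346) and Lrch1 (0.0360).

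Npr3 (ENSMUSG00000022206, chr15:11839896-11907287, minus strand), the clearance receptor, was the only one of the 7 with a fold change above 0. WT libraries had 1.16, 0.737 and 1.19 FPKM, and Crlf2-/- libraries 1.24, 1.16 and 1.55 FPKM. The lowest value was WT replicate 2 and the highest Crlf2-/- replicate 3, and the groups overlapped between 1.16 and 1.19 FPKM. The means were 1.03 ± 0.254 and 1.32 ± 0.201 FPKM (SD, n = 3 each), with a log2 fold change of 0.35, a standard error of 0.226 and a 95% interval of -0.17 to 0.87 (limma adjusted p = 0.913). Without WT replicate 2 the fold change was 0.14. The genes closest in profile were Cdh19 (0.0586), a cadherin, 2510016D11Rik (0.0661) and Trim30c (0.0785).

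The Npr3 to Npr1 ratio sets clearance against signalling receptor for ANP and BNP. From scaled FPKM + 0.1, it was 0.398, 0.254 and 0.346 in WT and 0.427, 0.433 and 0.406 in Crlf2-/-. Every Crlf2-/- library had a higher ratio than every WT library, with a narrow gap between 0.398 and 0.406. The mean log2 ratio was higher by 0.367 in Crlf2-/- (two-sided exact permutation test, p = 0.1, the smallest possible, adjusted p = 0.167 over 5 ratios). Without WT replicate 2 the difference was 0.186, and with a pseudocount of 1 it was 0.210 and the groups overlapped (exact permutation p = 0.2).

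**Figure D4:**
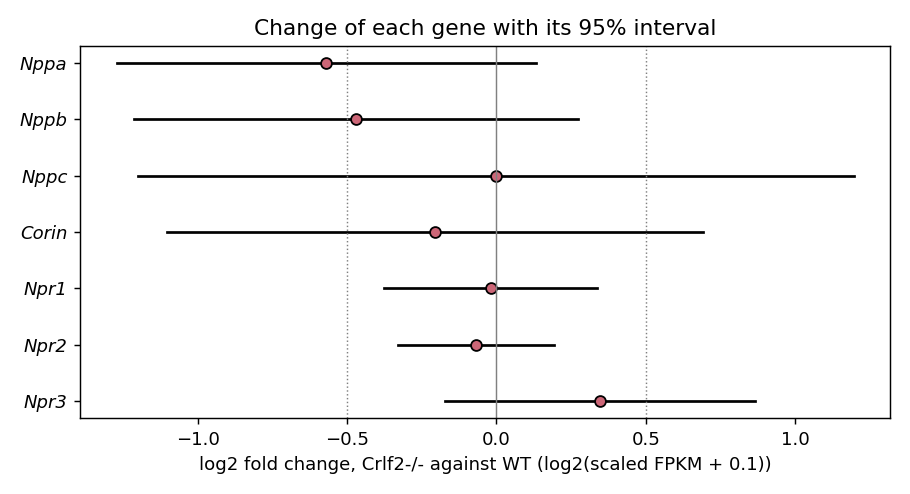
Log2 fold change of Crlf2-/- against WT (horizontal axis, from log2(scaled FPKM + 0.1)) for each of the 7 genes, with the 95% interval as a bar and the fold-change threshold of 0.5 dotted. Each interval crosses 0, and the intervals of Npr1 and Npr2 are the ones that stay inside the dotted lines.

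Endothelial, endocardial, smooth muscle and other cells carry these receptors, and their markers were counted in the same way. Endothelial markers were lower in 9 of 10 cases, with a median log2 fold change of -0.17, a summed level of 191 to 210 FPKM in WT and 172 to 182 FPKM in Crlf2-/-, and 2 whose Crlf2-/- values all lay under the WT values (Pecam1 and Tek, beside 6.37% of all genes). Endocardial markers, of cells in which Npr3 is known to be high, had a median of -0.20 over 4 tested (3 lower), with sums of 62.3 to 63.9 and 48.6 to 63.4 FPKM. Most of each sum was 1 gene, Plvap, at 33.6 to 49.2 FPKM. Smooth muscle and pericyte markers had a median of 0.11 (5 of 10 higher), fibroblast markers of -0.10 (6 of 11 lower) and macrophage markers of 0.11 (9 of 10 higher), and the groups did not overlap for 2, 2 and 1 of these markers, respectively, beside 11.7% of all genes. Epicardial markers were higher in 7 of 7 cases, with a median of 0.39, and their sum was 9.87 to 22.1 FPKM in WT and 14.8 to 36.0 FPKM in Crlf2-/-. Per library, the median epicardial marker deviated from its WT mean by -0.566, 0.346 and 0.404 in WT and by 1.18, 0.015 and 0.058 in Crlf2-/-. Crlf2-/- replicates 2 and 3 thus lay below WT replicates 2 and 3. Red blood cell markers were lower in 5 of 5 cases, with a median of -1.29 and sums of 226 to 370 FPKM in WT and 84.9 to 161 FPKM in Crlf2-/-. All 5 had an unadjusted p under 0.05, beside 6.58% of all genes, and Crlf2-/- values that all lay under the WT values, beside 6.37%. None of the 5 was called. The part of these lists in the receptor values was not tested.

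Downstream of the receptors, cGMP acts through kinases and is broken down by phosphodiesterases. Of 11 cGMP effectors, none was called, 6 were higher and 5 lower, with a median log2 fold change of 0.04. Prkg2, the type II cGMP-dependent kinase, had 0.388, 0.464 and 0.349 FPKM in WT and 0.831, 0.846 and 0.843 FPKM in Crlf2-/-. Its groups lay clearly apart, and its log2 fold change of 0.92 had a standard error of 0.192, with an unadjusted p under 0.05 that did not pass after adjustment (limma adjusted p = 0.244). Prkg1, the type I kinase, was not raised, at 1.77 ± 0.680 FPKM in WT and 1.55 ± 0.337 FPKM in Crlf2-/- (SD, n = 3 each, log2 fold change -0.14, limma adjusted p = 0.996). Pln, phospholamban, the brake of the calcium pump and a kinase substrate, had 39.8 ± 11.4 FPKM in WT and 23.6 ± 7.54 FPKM in Crlf2-/- (SD, n = 3 each, log2 fold change -0.75, limma adjusted p = 0.635), and it is also a cardiomyocyte marker. Vasp, an actin regulator and kinase substrate, had 36.0 ± 4.03 and 41.3 ± 5.30 FPKM, Rgs4, a brake of G protein signalling, 25.6 ± 2.67 and 29.7 ± 3.16 FPKM, and Hspb6, a small heat shock protein, 28.1 ± 9.64 and 19.8 ± 6.77 FPKM.

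The nitric oxide branch, which makes cGMP by a soluble cyclase, had no call in 6 genes, 5 of them lower, with a median of -0.09. Its cyclase subunit Gucy1a1 had 32.1 ± 9.16 FPKM in WT and 24.3 ± 4.07 FPKM in Crlf2-/- (SD, n = 3 each), and Gucy1b1 29.4 ± 5.48 and 25.95 ± 3.30 FPKM. Nos3, the endothelial synthase, had 5.20 ± 0.388 and 5.46 ± 0.453 FPKM, and Nos2, the inducible synthase, 2.12 ± 0.663 and 2.01 ± 0.179 FPKM. Among phosphodiesterases and exporters 10 of 11 genes were tested and none called, 4 higher and 6 lower, with a median of -0.02. Pde1a had 10.2 ± 0.707 and 8.86 ± 1.31 FPKM, Pde3a 4.86 ± 1.30 and 4.35 ± 0.81 FPKM, Pde3b 4.52 ± 0.517 and 4.59 ± 0.641 FPKM, and the exporter Abcc5 5.06 ± 0.877 and 5.24 ± 0.311 FPKM.

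Of the 15 transcription factors known to act on Nppa and Nppb, none was called, 8 were higher and 7 lower, with a median of 0.01. Gata4, which binds the GATA motif, had 11.3 ± 1.37 FPKM in WT and 11.2 ± 2.29 FPKM in Crlf2-/- (SD, n = 3 each). Tbx20 had 17.7 ± 3.81 and 17.7 ± 3.14 FPKM, Srf, which binds the serum response element, 15.5 ± 0.829 and 17.7 ± 2.68 FPKM, and Mef2d 12.1 ± 1.015 and 12.2 ± 0.782 FPKM. Rest, a repressor of the fetal cardiac genes, was 6.57, 6.68 and 6.86 FPKM in WT and 6.04, 6.52 and 6.21 FPKM in Crlf2-/-. Its groups did not overlap, and the log2 fold change was -0.10 (limma adjusted p = 0.9746). Over all 74 genes of the 7 pathway lists apart from the members, 72 were tested and 0 called by limma, and 3 (4.17%, beside 6.58% of all genes) had an unadjusted p under 0.05.

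**Figure D5:**
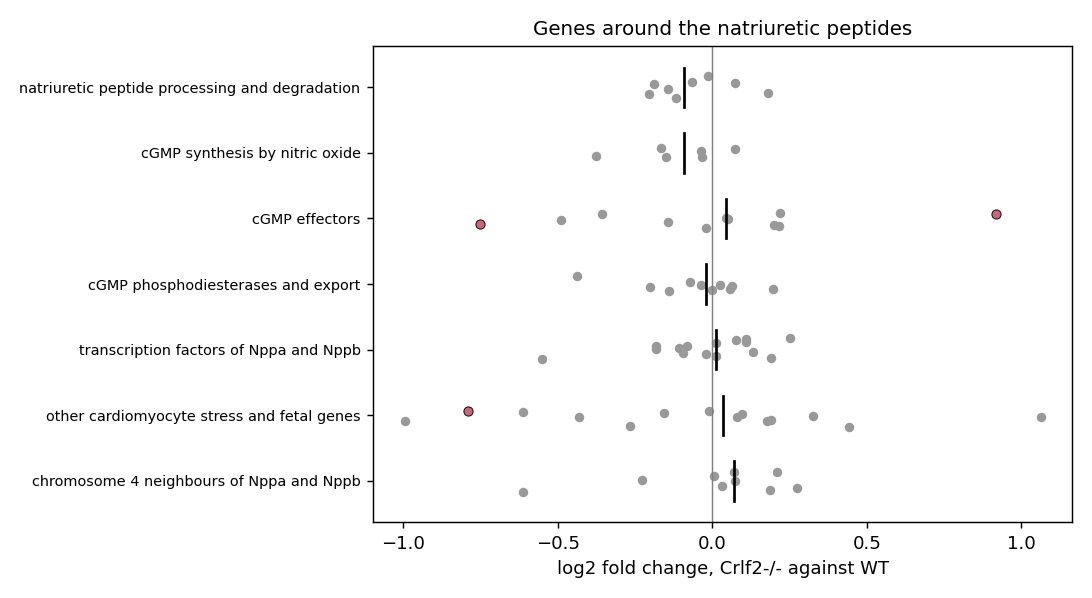
Log2 fold change of Crlf2-/- against WT (horizontal axis) for the tested genes of the 7 pathway lists (rows), with the list median as a black bar and genes with an unadjusted p under 0.05 in red. The list medians lie between -0.09 and 0.07, and the red genes are Prkg2, Pln and Nmrk2.

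Some members share their position with other annotated genes. The antisense gene Gm13054 overlaps Nppa over 989 bases and had 2 to 11 fragments per library against 2687 to 7868 for Nppa, and Gm12473 overlaps Npr2 over 9599 bases with 11 to 53 fragments against 955 to 1180. Whether counting used the strand was not given in the sources used here, so reads of such pairs may not be separable. Gm16048 in Npr1 and Gm5144 in Npr3 had at most 1 fragment in a library, and the 5 features inside Corin had 0.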

How the data were processed

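Infarcted and peri-infarcted hearts of 3 WT and 3 Crlf2-/- mice were sequenced as poly-A RNA. The authors trimmed reads with FASTP, aligned them with HISAT2 2.0.5 (version per the labels), counted fragments with featureCounts and deposited FPKM per gene and library. The labels list a mouse build, mm10, beside a human one, and the start and end of the 7 genes equal GENCODE M21 (GRCm38).

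FPKM times gene length, divided by the value of 1 fragment in that library, was whole (tolerance 0.05) for all nonzero values. These were used for the depth, the filter (10 fragments in 3 libraries, 15 in total) and trimmed-mean scaling. log2(scaled FPKM + 0.1) was fitted with limma 3.58.1 (R 4.3.3, trend and robust, genotype only), and p was adjusted by Benjamini-Hochberg over 15520 genes. Ratios were formed within a library from scaled FPKM + 0.1 and compared by exact permutation (Python 3.11.15, scipy 1.17.1). The procedure was tested on simulated data. A limma p-value sets the difference between genotypes against the spread between libraries of the same group. A permutation p-value ranks that difference among all relabellings of the libraries, and with 3 against 3 it cannot fall below 0.1.

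The members and gene lists were chosen with earlier results of these data known. Named genes were the members, Crlf2, of each list the 4 with the highest mean FPKM and any with an unadjusted p under 0.05, overlapping genes, and for each member the 3 genes with the smallest root mean square difference in profile. Genes named because their groups did not overlap (Furin, Miip, Rest), Prkg1, Tnni1 and single markers of the cell lists were chosen after their values were seen. Replicate numbers were not taken to pair samples, since libraries with the same number had deviations from their group means that correlated with r = -0.0163, 0.115 and 0.119 across genes.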

Additional observations from a re-analysis of the deposited data

How the results depend on the processing

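Scaling, pseudocount, filter, moderation, limma voom on the fragments, a replicate block and the omission of each library were tried. Of 108 alternative values of the 7 fold changes, 100 kept their direction and stayed uncalled, and the lowest adjusted p was 0.39 (Nppb without Crlf2-/- replicate 3). The 8 others turned sign, none of them called. Nppc was 0.019 with a pseudocount of 1, 0.17 without WT replicate 2 and 0.55 without Crlf2-/- replicate 2. Npr1 was 0.05 without WT replicate 3, 0.02 without Crlf2-/- replicate 1 and 0.083 without Crlf2-/- replicate 2. Corin was 0.0033 without WT replicate 2 and 0.062 without WT replicate 3. The omission of 1 library gave -0.87 to -0.26 for Nppa, -0.86 to -0.22 for Nppb, -0.40 to 0.55 for Nppc, -0.16 to 0.083 for Npr1, -0.14 to -0.0034 for Npr2, 0.14 to 0.46 for Npr3 and -0.68 to 0.062 for Corin. Nppc failed the filter, and so has no value, with 10 fragments required in every library and without WT replicate 3, Crlf2-/- replicate 1 or Crlf2-/- replicate 3. All 46 alternative values of the 5 ratios kept their direction, but with all 6 libraries the separation of the groups ended (exact permutation p = 0.2) for Nppb with the mean of the markers and with the cardiac-restricted markers, for Corin with the cardiac-restricted markers, and for Npr3 over Npr1 with a pseudocount of 1. The cause of these shifts was not tested.

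Over all genes, 2 were called. This count was 6 without a filter, 1 with 10 fragments in every library, and 1 to 14 with 1 library left out, the highest without Crlf2-/- replicate 1 and 1 each without WT replicate 1, WT replicate 2 and Crlf2-/- replicate 3. It was 5 without WT replicate 3. With the replicate block it was 4, and the block changed no call among the 7 genes, although same-numbered libraries share only a number. With 3 libraries a group, the 95% intervals give the changes that the data leave possible, and no smallest detectable change was worked out.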
